A study of Mus musculus with 23 samples.

Results

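The cluster of miR-183, miR-96 and miR-182 is a group of 3 microRNA (miRNA) genes on mouse chromosome 6, and its 6 mature arms are described here in 23 small RNA sequencing libraries of dissected mouse brain. The members were the rows named miR-182, miR-183 and miR-96, 5p and 3p, in tables that list 1915 mature miRNAs, and all 6 were found. The libraries came from C57BL/6 mice with a Cdr1as knockout (11 libraries) or with the wild type genotype (12 libraries). Cdr1as is a circular RNA of neurons with many binding sites for miR-7. Both genotypes were sampled in the olfactory bulb, cortex, hippocampus and cerebellum. Every group had 3 libraries except knockout hippocampus, whose 2 libraries carry the numbers 2 and 3. Apart from the genotype no treatment is named, and neither the structure of the knockout allele nor the age or sex of the mice is given in the labels. Whether each library is a separate animal is not in the labels either. The p-values below therefore describe the spread among these libraries only, which may be technical, and 1 mouse may have given several regions. Cdr1as itself is not counted in miRNA libraries, so the knockout was not checked by its target.

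The 3 miRNAs are known as a sensory cluster. They are transcribed together as 1 primary RNA, which Drosha and Dicer cut into hairpins and then into short duplexes, and they are abundant in photoreceptors, hair cells of the inner ear and olfactory sensory tissue, where mutation of the cluster impairs the sense organ. From each duplex 1 strand, the guide, is loaded into Argonaute and pairs with messenger RNAs mainly through its seed, bases 2 to 8, while the other strand, the passenger, is mostly degraded. For all 3 genes the 5p arm is the guide. MiR-96 is known from deafness mutations in its seed, miR-183 and miR-182 act beside it in hair cells and photoreceptors, and the 3p arms have few described roles.

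The guide sequences are shown first, because their close likeness bears on how reads can be assigned and on how many targets the 3 can share. Each is written 5′ to 3′ with its seed in capitals, as RefSeq annotates it on GRCm38.p6.
miR-182-5p: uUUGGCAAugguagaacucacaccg
miR-183-5p: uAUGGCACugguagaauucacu
miR-96-5p: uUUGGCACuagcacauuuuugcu
The passenger arms, for which the same region of the molecule is in capitals, are shown because their reads give the imbalance between the arms.
miR-182-3p: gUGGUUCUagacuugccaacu
miR-183-3p: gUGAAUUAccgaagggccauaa
miR-96-3p: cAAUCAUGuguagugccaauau

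The 3 guide seeds have the run UGGCA, bases 3 to 7, in common and differ only at their ends. Counted from 1 at the 5′ end, the seed of miR-96-5p differs from that of miR-183-5p by U2A and from that of miR-182-5p by C8A, and the seed of miR-182-5p differs from that of miR-183-5p by U2A and A8C. Over their whole length, set side by side from the 5′ end, miR-182-5p and miR-183-5p are the closest pair, with 18 of 22 bases identical, against 12 of 23 for miR-96-5p and miR-182-5p and 13 of 22 for miR-96-5p and miR-183-5p. No other miRNA tested here has one of the 3 guide seeds. In the RefSeq table miR-1271-5p has the seed of miR-96-5p, and it was not analysed here. MiR-3475-5p has the seed of miR-96-3p, and it had 1 count in all libraries together and was not tested.

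All 3 hairpins lie on the minus strand, in the order Mir183, Mir96, Mir182 in the direction of transcription. They are annotated at chr6:30169668-30169737 for Mir183, chr6:30169446-30169551 for Mir96 and chr6:30165918-30165992 for Mir182 (GRCm38.p6). Only 116 bases separate Mir183 from Mir96 and 3453 bases separate Mir96 from Mir182, so that the 3 hairpins span 3820 bases. In the GENCODE M21 annotation no gene other than the 3 miRNA genes covers the hairpins. The nearest genes are Nrf1, a protein-coding gene, and Rncr4, a long non-coding RNA gene, both on the plus strand. The Mir182 hairpin, with its 5p and 3p arms in capitals, shows where the guide and the passenger lie. Pairing between them was not computed.
Mir182 hairpin: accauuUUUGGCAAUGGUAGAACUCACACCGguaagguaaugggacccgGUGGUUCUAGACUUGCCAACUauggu

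The libraries held 2328929 to 13070794 counted reads each and detected 741 to 1094 miRNAs. The tests were run on 669 miRNAs that passed a filter on low counts, and all 6 cluster arms were among them. MiR-182-3p and miR-96-3p passed through the olfactory bulb, since over the 17 libraries of the other 3 regions they had 4 and 2 counts in all. Levels are given as counts-per-million (CPM) on library sizes scaled by the trimmed mean of M values (TMM), whose factors were 0.620 to 0.763 in the olfactory bulb and 0.620 to 1.41 over all libraries. The neuronal miRNAs miR-124-3p, miR-128-3p and both arms of miR-9 summed to at least 94180.5 CPM in every library. Mature miRNAs are read whole, so no length correction applies. Reads of different miRNAs are still captured with unequal efficiency, which was not measured, so ratios between miRNAs are compared across samples and not read as ratios of molecules. Reads carry no molecular identifiers, and counting intervals cover counting error only. In bulk tissue, fewer cells of a type and less RNA per cell cannot be told apart.

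The cluster was far more abundant in the olfactory bulb than in any other region, in both genotypes. There its 6 arms together took 13.5 to 20.8% of the miRNA reads in knockout libraries and 16.2 to 17.7% in wild type libraries. In the cortex the share was 0.0132 to 0.0472% in knockout libraries and 0.393 to 0.752% in wild type libraries. In the cerebellum it was 0.0491 to 0.0992% in knockout and 0.0676 to 0.0876% in wild type libraries, and in the hippocampus 0.0137 to 0.0232% in knockout and 0.0189 to 0.0354% in wild type libraries. Within every library the order of the guides was the same, with miR-182-5p above miR-183-5p and miR-183-5p above miR-96-5p in 23 of 23 libraries.

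MiR-182-5p, the most abundant arm, reached 301041, 194730 and 159526 CPM in knockout olfactory bulb and 221344, 196949 and 213606 CPM in wild type olfactory bulb. It ranked 2 among all miRNAs of the library in each of these 6 libraries. The knockout libraries of the bulb were spread more widely, but on both sides of the wild type range. MiR-183-5p stood at 32844, 23579.9 and 20231.5 CPM in knockout and 26260.1, 24370.5 and 27187 CPM in wild type olfactory bulb, at ranks 6 to 9. MiR-96-5p stood at 1083, 874 and 552 CPM in knockout and 864, 876 and 696 CPM in wild type olfactory bulb, at ranks 80 to 101. In the knockout group replicate 1 was the highest and replicate 3 the lowest for each of the 3 guides. Of the passenger arms, miR-183-3p averaged 208 ± 52.8 CPM in knockout and 213 ± 24.2 CPM in wild type olfactory bulb (SD, n = 3 each). The rarer arms averaged 9.73 ± 0.380 CPM in knockout and 9.32 ± 2.02 CPM in wild type olfactory bulb for miR-182-3p, and 3.60 ± 1.19 CPM in knockout and 3.35 ± 0.921 CPM in wild type olfactory bulb for miR-96-3p.

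**Figure D1:**
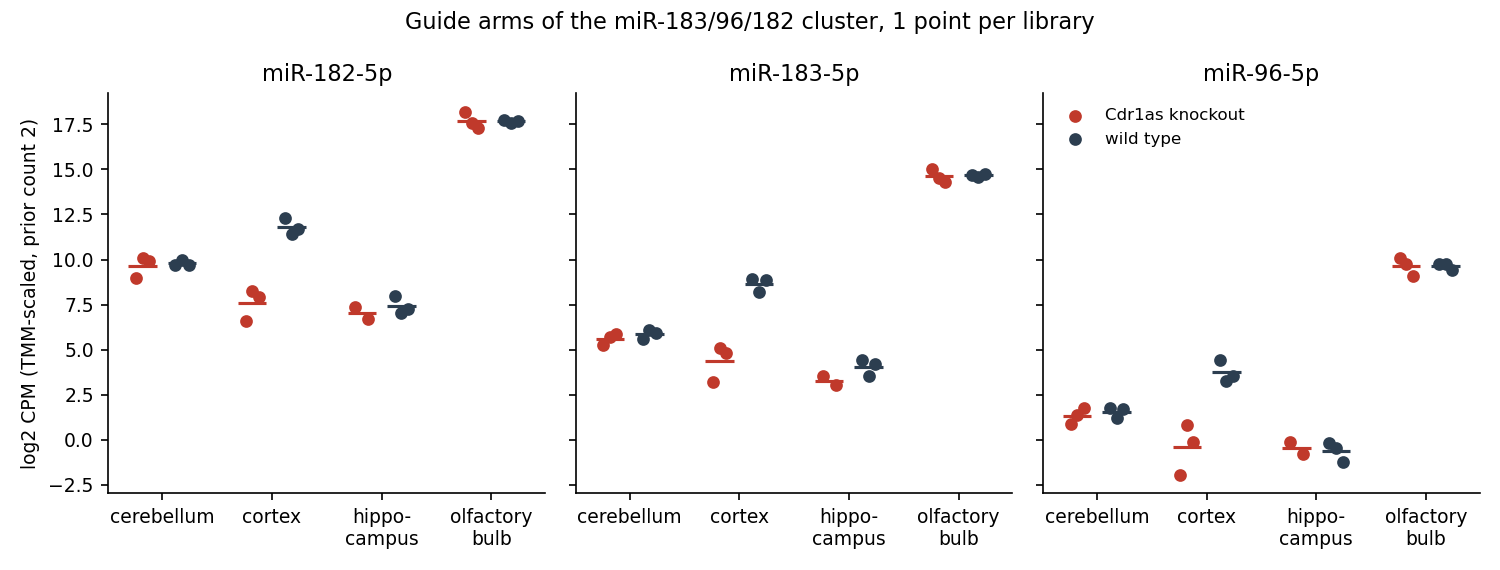
Level of the 3 guide arms in each library, as log2 CPM on TMM-scaled library sizes with a prior count of 2, by region. Points are libraries (knockout left of wild type), and lines are group means; the olfactory bulb is highest for each guide, and the genotypes are apart in the cortex.

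In knockout mice the levels of the guides ran from olfactory bulb to cerebellum and then to cortex and hippocampus. Regions were compared with the edgeR quasi-likelihood test, with Benjamini-Hochberg adjustment over the 669 miRNAs, and a call needed an adjusted p under 0.05 and a difference of at least 2-fold. The counts of calls in the olfactory bulb leave out miR-182-3p and miR-96-3p, which were tested only through their reads there and had to differ. The other 4 arms were called higher in knockout olfactory bulb than in knockout cerebellum, cortex and hippocampus, where 17.5, 14.6 and 11.8% of the miRNAs tested were. MiR-182-5p exceeded its level in knockout cortex by 10.01 (SE 0.52), and miR-183-5p by 10.08 (SE 0.46), on the log2 scale. MiR-182-3p had no count in the other 3 knockout regions and was at least 68.1-, 51.6- and 94.97-fold higher in knockout olfactory bulb than in knockout cerebellum, cortex and hippocampus, taking 3 counts over the group as the floor. MiR-96-3p was likewise at least 27.7-, 21.0- and 38.6-fold higher. MiR-182-5p had 96.3, 302 and 239 CPM in knockout cortex, 507, 1069.5 and 949.7 CPM in knockout cerebellum and 165 and 103 CPM in knockout hippocampus. The cortex libraries thus lay below all cerebellum libraries, which was not counted for other miRNAs, and overlapped the hippocampus libraries. Knockout cortex was lower than knockout cerebellum by -1.99 (SE 0.37, edgeR, Benjamini-Hochberg adjusted p = 9.25e-05) for miR-182-5p, -1.06 (SE 0.34, adjusted p = 0.0111) for miR-183-5p and -1.54 (SE 0.65, adjusted p = 0.0463) for miR-96-5p on the log2 scale. These 3 of 6 arms compare with 19.9% of the miRNAs called lower. The count was 1 without cortex replicate 1 or without cerebellum replicate 3, where miR-182-5p alone was called, and also 1 with library sizes left unscaled. MiR-96-5p also missed the threshold without cortex replicate 3 (adjusted p = 0.0859) or cerebellum replicate 2 (adjusted p = 0.0669).

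The neighbours cortex and hippocampus in the knockout order differed in 1 of the 6 arms, where 4.04% of all miRNAs were called. This was miR-183-5p, higher in knockout cortex at 1.29 (SE 0.40, edgeR with Benjamini-Hochberg adjusted p = 0.0362). That call was lost on leaving out cortex replicate 2 or 3 or hippocampus replicate 2 or 3, with miR-183-5p at 0.86 to 1.59 and adjusted p of 0.0737 to 0.24. MiR-182-5p differed by 0.66 (SE 0.41, adjusted p = 0.339) and miR-96-5p by 0.65 (SE 0.81, adjusted p = 0.675), both short of the threshold. Knockout cerebellum exceeded knockout hippocampus for 4 of 6 arms, against 16.9% of the miRNAs tested, with miR-182-5p at 2.65 (SE 0.44), miR-183-5p at 2.36 (SE 0.40) and miR-96-5p at 2.18 (SE 0.63) on the log2 scale. The fourth, miR-183-3p, rested on 12 counts in knockout cerebellum against 3 in knockout hippocampus, and it was not called without cerebellum replicate 2 or 3 (adjusted p = 0.128 and 0.136). Without hippocampus replicate 3 the count of arms called was 2.

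In wild type libraries the cortex stood above the cerebellum. For all 3 guides the regions ran from olfactory bulb to cortex, cerebellum and hippocampus. Each step of that order was called for each guide. Whether the cortex libraries held tissue of the olfactory bulb was not tested. Wild type olfactory bulb exceeded wild type cortex by 5.84 (SE 0.43) for miR-182-5p, 5.97 (SE 0.38) for miR-183-5p and 5.86 (SE 0.38) for miR-96-5p on the log2 scale, or 57.2-, 62.8- and 58.2-fold. The 3 differences lay within 1 SE of each other. The 3 guides and miR-183-3p were called higher in the bulb in this contrast, against 13.5% of all miRNAs tested. Against cerebellum and hippocampus the same 4 arms were higher in the wild type bulb, where 18.2% and 13% of the miRNAs tested were. MiR-182-3p passed the filter only through its reads in the olfactory bulb, so a higher level there had to follow. As a description, it had 158 counts in wild type olfactory bulb and 2 in wild type cortex. That is a ratio of 97.1 per scaled read (95% counting interval 26.4 to 809, which covers counting error only).

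Below the olfactory bulb the wild type levels parted further. MiR-182-5p had 5055, 2712 and 3277 CPM in wild type cortex, 814, 1021 and 829.6 CPM in wild type cerebellum and 248, 132 and 152 CPM in wild type hippocampus. No library of one of these groups overlapped another group, which was not counted for other miRNAs. Cortex exceeded cerebellum by 2.05 (SE 0.37, edgeR, Benjamini-Hochberg adjusted p = 5.32e-05) for miR-182-5p, 2.80 (SE 0.34) for miR-183-5p and 2.37 (SE 0.40) for miR-96-5p on the log2 scale. With miR-183-3p at 2.38 (SE 0.48), 4 of 6 arms were called higher in the cortex, against 21.5% of the miRNAs tested. Cortex exceeded hippocampus for the same 4 arms, against 6.73% of the miRNAs tested, with 4.38 (SE 0.41) for miR-182-5p, 4.61 (SE 0.37) for miR-183-5p, 5.03 (SE 0.50) for miR-96-5p and 3.64 (SE 0.53) for miR-183-3p. Cerebellum exceeded hippocampus for the 3 guides, against 17.5% of the miRNAs tested, with 2.33 (SE 0.37), 1.81 (SE 0.34) and 2.66 (SE 0.59) for miR-182-5p, miR-183-5p and miR-96-5p.

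The cluster was lower in knockout cortex than in wild type cortex. Whether the dissections of both genotypes took in the same tissue was not tested. In the cortex miR-182-5p had 96.3, 302 and 239 CPM in knockout libraries, against 5055, 2712 and 3277 CPM in wild type libraries. MiR-183-5p had 9.03, 34.3 and 27.7 CPM in knockout cortex, against 491, 289.5 and 459.7 CPM in wild type cortex. MiR-96-5p, at low depth, had 0, 11 and 2 counts in knockout cortex, against 150, 83 and 74 counts in wild type cortex. For each of these arms the highest knockout library was below the lowest wild type library. How many other miRNAs were separated in this way was not counted. Replicate 1 was the lowest of the knockout libraries for each arm.

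All 3 guides were lower in knockout cortex than in wild type cortex. By the edgeR quasi-likelihood test with Benjamini-Hochberg adjustment over the 669 miRNAs, miR-182-5p was 17.3-fold lower in knockout cortex (log2 change -4.11, SE 0.40, adjusted p = 6.94e-07), miR-183-5p 17.5-fold (-4.13, SE 0.37, adjusted p = 2.68e-07) and miR-96-5p 16.9-fold (-4.08, SE 0.53, adjusted p = 1.4e-05). The passenger arm miR-183-3p, with 0, 3 and 1 counts in knockout cortex and 27, 23 and 27 counts in wild type cortex, was lower by -3.70 (SE 0.66, adjusted p = 0.00103). MiR-182-3p and miR-96-3p had no count in knockout cortex and 2 and 1 counts in wild type cortex, too few for a fold. So 4 of 6 arms were called lower, against 2.09% of all miRNAs tested, and 4 of 6 was also the count without any 1 of the 6 cortex libraries. Leaving out knockout replicate 2 moved miR-96-5p most, since the log2 change over the 6 omissions ran from -5.79 to -3.47, and over the same omissions miR-182-5p ran from -4.47 to -3.76 and miR-183-5p from -4.56 to -3.72.

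**Figure D2:**
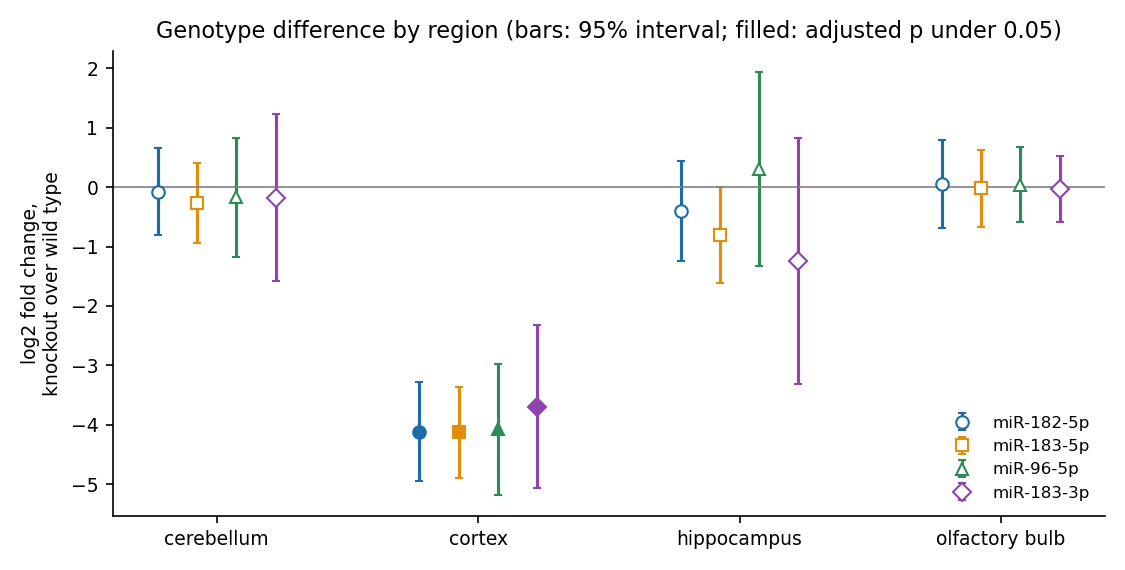
Log2 fold change, knockout over wild type, of the 3 guides and miR-183-3p in each region, with 95% intervals from the edgeR fit. Filled symbols passed an adjusted p of 0.05; all 4 filled symbols are in the cortex, near -4, and the intervals of the other regions span 0, with that of miR-183-5p in the hippocampus ending at 0.01.

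In the olfactory bulb, where the arms had the most reads, the genotypes did not part. The SE of the miR-182-5p difference was 0.352 in the olfactory bulb and 0.353 in the cerebellum, so more reads did not make it more precise. The group means of miR-182-5p were 218432 ± 73675 CPM in knockout and 210633 ± 12466 CPM in wild type olfactory bulb (SD, n = 3 each), a log2 difference of 0.05 with a 95% interval from -0.68 to 0.79. The difference was -0.02 (-0.67 to 0.62) for miR-183-5p, 0.04 (-0.59 to 0.68) for miR-96-5p and -0.03 (-0.59 to 0.53) for miR-183-3p. Of the 6 arms 0 were called, with 0 at an unadjusted p under 0.05, where 0.149% of all miRNAs were called in the bulb. DESeq2 and limma-voom also called 0 arms there.

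In the cerebellum miR-182-5p had 507, 1069.5 and 949.7 CPM in knockout and 814, 1021 and 829.6 CPM in wild type libraries, and the groups overlapped. MiR-183-5p had 37.9, 51.1 and 59.1 CPM in knockout and 48.7, 69.1 and 59.8 CPM in wild type cerebellum. MiR-96-5p had 11, 13 and 26 counts in knockout and 23, 18 and 24 counts in wild type cerebellum. The log2 differences were -0.08 (95% interval -0.81 to 0.66) for miR-182-5p, -0.26 (-0.94 to 0.41) for miR-183-5p and -0.17 (-1.17 to 0.83) for miR-96-5p. The edgeR quasi-likelihood test called 0 of 6 arms, also at an unadjusted p under 0.05 and by DESeq2 and limma-voom, where 0.149% of the miRNAs were called.

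In the hippocampus, with 2 knockout libraries, miR-182-5p had 165 and 103 CPM in knockout and 248, 132 and 152 CPM in wild type libraries. MiR-183-5p had 11.3 and 7.87 CPM in knockout and 21.5, 11.2 and 18.0 CPM in wild type hippocampus, and only knockout replicate 2 overlapped the wild type range. The log2 difference was -0.40 (95% interval -1.24 to 0.44) for miR-182-5p and -0.81 (-1.62 to 0.01) for miR-183-5p. By the edgeR quasi-likelihood test 0 of 6 arms were called, where 0% of the miRNAs were, with 0 arms at an unadjusted p under 0.05 and 0 called by DESeq2 or limma-voom. The Benjamini-Hochberg adjusted p of miR-183-5p was 0.832 with edgeR and 0.789 with DESeq2, where it was the 1 arm with an unadjusted p under 0.05. MiR-96-5p had 11 and 4 counts in knockout and 6, 6 and 2 counts in wild type hippocampus, too few to order the genotypes.

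The cortex difference was itself larger than the mean of the other regions, in a contrast chosen with earlier results of these data known. The genotype difference in the cortex minus its mean in cerebellum, hippocampus and olfactory bulb was -3.97 (SE 0.44, edgeR, Benjamini-Hochberg adjusted p = 5.33e-06) for miR-182-5p, -3.76 (SE 0.40, adjusted p = 5.33e-06) for miR-183-5p and -4.14 (SE 0.64, adjusted p = 0.0006) for miR-96-5p on the log2 scale. For miR-183-3p it was -3.21 (SE 0.91, adjusted p = 0.122), short of the threshold. These 3 of 6 arms compare with 1.2% of all miRNAs tested. Averaged over the 4 regions, 2 of 6 arms were lower in knockout libraries, against 1.35% of the miRNAs tested, with miR-182-5p at -1.13 (SE 0.19) and miR-183-5p at -1.30 (SE 0.17), and this average contains the cortex difference.

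The make-up of the cluster was next described by ratios of counts within a library, which do not depend on how libraries are scaled. Per 100 reads of miR-182-5p there were 10.9, 12.1 and 12.7 reads of miR-183-5p in knockout and 11.9, 12.4 and 12.7 in wild type olfactory bulb. In the cortex there were 9.38, 11.3 and 11.6 in knockout and 9.71, 10.7 and 14.0 in wild type libraries. In the hippocampus there were 6.84 and 7.61 in knockout and 8.68, 8.52 and 11.8 in wild type libraries, and in the cerebellum 7.47, 4.78 and 6.22 in knockout and 5.99, 6.77 and 7.21 in wild type libraries. All olfactory bulb and cortex libraries thus lay above all cerebellum libraries, whereas the hippocampus overlapped both sides.

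The miR-183-5p to miR-182-5p ratio therefore differed between regions by less than 2-fold, while miR-182-5p itself differed 1627-fold between knockout olfactory bulb and knockout hippocampus and 1189-fold between the same regions of the wild type. Olfactory bulb exceeded cerebellum 1.91-fold in this ratio (0.93 on the log2 scale, two-sided exact permutation p = 0.005, adjusted p = 0.03 over 12 tests of 6 region pairs and 2 ratios). Cortex exceeded cerebellum 1.74-fold (exact permutation p = 0.005, adjusted p = 0.03) and olfactory bulb exceeded hippocampus 1.45-fold (exact permutation p = 0.01, adjusted p = 0.04). These permutations exchanged region within genotype, and 0.005 is the smallest p that 400 arrangements give. Leaving out single libraries gave olfactory bulb to hippocampus differences of 0.50 to 0.61, of which 9 of 11 no longer passed. Exchanging region only between libraries of the same number and genotype gave an adjusted exact permutation p of 0.15 for all 3 pairs. Cortex against hippocampus (0.41) and cerebellum against hippocampus (-0.39) did not pass (exact permutation p = 0.025 and adjusted p = 0.06 for each), nor did olfactory bulb against cortex (0.13, adjusted p = 0.334).

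**Figure D3:**
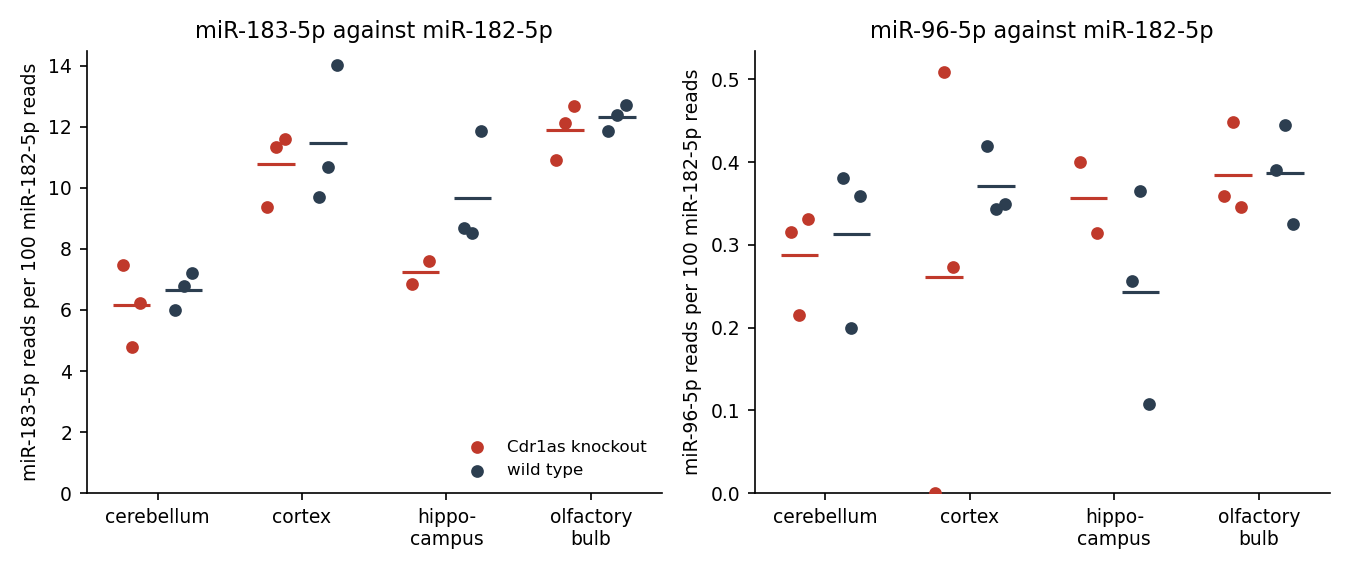
Reads of miR-183-5p (left) and miR-96-5p (right) per 100 reads of miR-182-5p in each library, by region. Points are libraries (knockout left of wild type) and lines are group means; the cerebellum is lowest on the left, at 4.78 to 7.47, and the right panel rests on 0 to 26 reads of miR-96-5p in each library of cerebellum, hippocampus and knockout cortex.

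MiR-96-5p was rare against miR-182-5p in all regions. Per 100 reads of miR-182-5p there were 0.360, 0.449 and 0.346 reads of miR-96-5p in knockout and 0.390, 0.445 and 0.326 in wild type olfactory bulb. In knockout cortex there were 0, 0.509 and 0.273, from 0, 11 and 2 reads, and in wild type cortex 0.419, 0.344 and 0.350. The wild type cortex values lay inside the range of the olfactory bulb. No region pair passed for this ratio, with exact permutation p adjusted to between 0.19 and 0.98. In cerebellum, hippocampus and knockout cortex the ratio rests on 0 to 26 reads of miR-96-5p in a library, so small differences were not detectable at this depth.

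No difference between the genotypes passed the test for either ratio. With genotype exchanged within regions, knockout minus wild type was -0.16 on the log2 scale for miR-183-5p over miR-182-5p (80000 arrangements, two-sided exact permutation p = 0.0782, and 0.156 when adjusted over the 2 ratios). For miR-96-5p over miR-182-5p it was 0.01 (exact permutation p = 0.972), a mean of regions that ran in opposite directions. That ratio differed by -0.53 in the cortex (exact permutation p = 0.7) and by 0.65 in the hippocampus (exact permutation p = 0.4), from 0 to 11 reads of miR-96-5p in each library of knockout cortex and of the hippocampus. In the cortex alone, where both of these guides were lower in the knockout, the miR-183-5p ratio differed by -0.07 (exact permutation p = 0.8). A region alone cannot give an exact permutation p below 0.1, and the lowest of the 4 regions for the miR-183-5p ratio was 0.2, for the hippocampus at -0.40. There the groups did not overlap, with 6.84 and 7.61 in knockout and 8.52 to 11.8 in wild type libraries, and 10 arrangements were possible.

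Reads of the 2 arms of a precursor were strongly uneven for each of the 3 genes. Unequal capture of the arms was not measured, so the shares of different genes are not compared as amounts of RNA. In the olfactory bulb the 3p arm of miR-182 had 286 of 6838604 reads of both arms, or 0.00418% (95% Clopper-Pearson interval 0.00371 to 0.00470%), which is 1 passenger read per 23910 guide reads. The 3p arm of miR-96 had 118 of 27101 reads (0.435%, 0.361 to 0.521%) and that of miR-183 had 6959 of 822392 (0.846%, 0.827 to 0.866%). By library the miR-182 share was 0.00316, 0.00522 and 0.00596% in knockout and 0.00320, 0.00502 and 0.00515% in wild type olfactory bulb. The miR-183 share was 0.641, 1.08 and 0.749% in knockout and 0.908, 0.801 and 0.733% in wild type olfactory bulb. The miR-96 share was 0.298, 0.561 and 0.477% in knockout and 0.470, 0.416 and 0.331% in wild type olfactory bulb. In each of the 6 libraries the order of the read shares was miR-183, miR-96, miR-182, and the genotypes overlapped for each gene (exact permutation p of 0.9 for miR-183, 0.7 for miR-96 and 0.6 for miR-182, smallest possible 0.1).

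Outside the olfactory bulb few passenger reads were counted. Over the other 3 regions the 3p arm of miR-183 had 121 of 12856 reads (0.941%, 0.782 to 1.12%), that of miR-96 had 2 of 466 (0.429%, 0.0520 to 1.54%) and that of miR-182 had 4 of 133466 (0.00300%, 0.000817 to 0.00767%). Of these 4 reads, 2 were from wild type hippocampus replicate 3, where the share was 0.108% (0.0130 to 0.388%), and without that library, an omission chosen after seeing the data, the pooled share was 0.00152% (0.000184 to 0.00549%). Most of the pooled miR-182 reads, 81054, were from wild type cortex. For miR-183 alone, knockout cortex had 4 of 384 (1.04%, 0.285 to 2.65%) and wild type cortex 77 of 9092 (0.847%, 0.669 to 1.06%). The cerebellum had 0 of 17370 miR-182 reads on the 3p arm in knockout and 0 of 21752 in wild type libraries, with Clopper-Pearson upper limits of 0.0212% in knockout and 0.0170% in wild type cerebellum. The floor of 3 counts corresponds to 0.0173% in knockout and 0.0138% in wild type cerebellum.

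The miR-200 family, known from epithelia and from the olfactory lineage, moved with the cluster in the cortex. Its 10 arms summed to 39174 to 59636 CPM in knockout and 45620 to 52929 CPM in wild type olfactory bulb. In the cortex they summed to 37.2 to 108 CPM in knockout and 676 to 1252 CPM in wild type libraries. Of its 9 tested arms, 8 were called lower in knockout cortex by the edgeR quasi-likelihood test, against 2.09% of the miRNAs tested. The median log2 change was -3.54 over the 9 arms, against -0.02 over all miRNAs tested. MiR-200a-3p was at 7.59, 23.8 and 14.7 CPM in knockout and 348, 182.5 and 198 CPM in wild type cortex (-3.96, SE 0.45, Benjamini-Hochberg adjusted p = 3.28e-06). MiR-200b-3p changed by -3.33 (SE 0.35) and miR-141-3p by -4.46 (SE 0.49), with an adjusted p of 1.91e-06 for each. The 14 miRNAs called lower in knockout cortex were 4 cluster arms, 8 miR-200 family arms, the miR-7 guides miR-7a-5p and miR-7b-5p.

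Relative to the olfactory bulb of the same genotype, and among arms with at least 10 counts, the 3 guides stood at 0.0874 to 0.0973% in knockout cortex and 6 miR-200 family arms at 0.0740 to 0.198%. In wild type cortex 4 cluster arms stood at 1.59 to 1.75% and 8 miR-200 family arms at 1.60 to 2.30%. In wild type cerebellum 4 cluster arms stood at 0.228 to 0.422%, above 5 miR-200 family arms at 0.0392 to 0.0652%. The cortex groups overlapped in the summed level of other marker lists, which was 111348 to 127550 CPM in knockout and 113371 to 118562 CPM in wild type cortex for the neuronal miRNAs. It was 1294 to 2004 CPM in knockout and 1247 to 1840 CPM in wild type cortex for choroid plexus miRNAs (miR-204 and miR-211), and 8462 to 11163 CPM in knockout and 7171 to 10901 CPM in wild type cortex for red blood cell miRNAs (miR-451a, miR-144 and miR-486). For oligodendrocyte miRNAs (miR-219a and miR-338) it was 1312 to 1687 CPM in knockout and 1491 to 1984.5 CPM in wild type cortex. In wild type libraries the neuronal sum averaged 198453 CPM in the olfactory bulb and 115515 CPM in the cortex. A small share of bulb tissue would thus hardly move this sum. The overlap of the lists therefore does not show that the cortex dissections held the same tissue. The part of cells that carry the miR-200 family in the lower cluster of knockout cortex was not tested. Nor was the amount of olfactory bulb tissue in the cortex dissections.

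The cerebellum was where the cluster and the miR-200 family parted. There were 125 to 174 cluster reads per miR-200 family read in knockout and 25.8 to 88.7 in wild type cerebellum, against 1.73 to 5.62 in the 17 libraries of the other 3 regions. The cerebellum ratios rest on few miR-200 family reads, 30, 45 and 48 in knockout and 76, 375 and 81 in wild type libraries. The lowest cerebellum value, 25.8, was that of wild type replicate 2, whose miR-200 family sum of 42.4 CPM exceeded the 10.1 and 10.2 CPM of the other wild type cerebellum libraries. In knockout cerebellum the family summed to 4.37 to 7.96 CPM, below every wild type cerebellum library. Of its 9 tested arms 0 were called between genotypes there, with a median log2 change of -1.63. Within the cortex the ratio was 2.83 to 3.97 in knockout and 4.31 to 4.46 in wild type libraries, so the groups did not overlap.

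**Figure D4:**
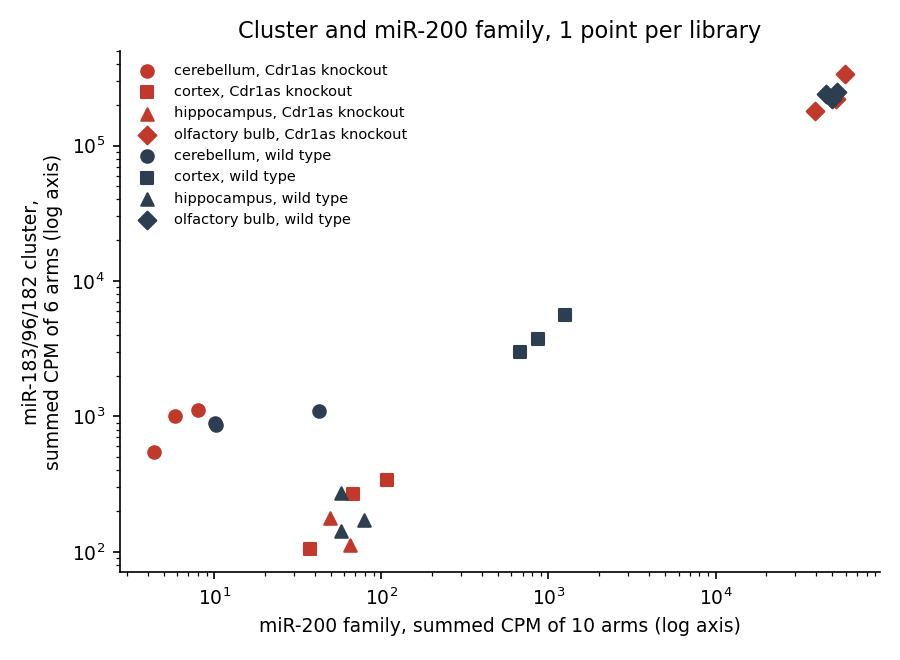
Summed CPM of the 6 cluster arms against summed CPM of the 10 miR-200 family arms, 1 point per library, both axes logarithmic. Colour marks the genotype and shape the region; knockout cortex lies with the hippocampus at the lower left, wild type cortex between these and the olfactory bulb at the upper right, and the cerebellum has fewer miR-200 family reads for its cluster level.

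Over the 8 group means of log2 CPM, the arms most like miR-182-5p within the cluster were miR-96-5p (Pearson r = 0.998), miR-183-5p (0.997) and miR-183-3p (0.991). Among all other miRNAs tested, the 5 most alike were miR-141-5p (0.973), miR-135b-3p (0.970), miR-200c-3p (0.966), miR-200b-5p (0.965) and miR-141-3p (0.961), of which 4 belong to the miR-200 family. These values are a description over 8 points that share libraries and depth, and they are set largely by the olfactory bulb. Without it, over 6 group means, miR-96-5p was at 0.990 and miR-183-5p at 0.980, while miR-135b-3p was at 0.841 and miR-141-5p at 0.770. The others of the 5 were lower, with miR-200c-3p at 0.731, miR-141-3p at 0.722 and miR-200b-5p at 0.681. Across the 17 libraries outside the olfactory bulb miR-182-5p and miR-183-5p had r = 0.974, as a description of libraries that fall into groups.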

How the data were processed

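Per the labels' protocols, total RNA was extracted with TRIZOL and made into libraries with a TruSeq kit for small RNA. For each library the authors deposited 1 table of unnormalized counts by mature miRNA, on the mm9 build, per the submitters' processing notes. How reads were aligned and counted, with which miRNA annotation, and where reads with several matches went is not given in the sources used here. Reads that cannot tell related miRNAs apart may have been divided or counted for both. Tests used edgeR 4.0.16 in R 4.3.3 (filterByExpr at min.count 10 and min.total.count 15, TMM factors, 1 quasi-likelihood model with 8 group means over 23 libraries, two-sided F tests, Benjamini-Hochberg adjustment over 669 miRNAs, which held at least 99.988% of the reads of a library). Between regions, a call needed a difference of at least 2-fold as well. Each log2 fold change sets the first group named over the second. Ratios of counts used 0.5 added to each count and exact permutation tests. DESeq2 1.42.0 and limma-voom (limma 3.58.1), other scalings and filters, single-library omissions and replicate blocks were alternatives. The fit and the ratio tests were tested on simulated data. Libraries of 1 group differed beyond sampling noise in all 22 pairs (chi-square per degree of freedom 28.4 to 242). Same-numbered knockout and wild type libraries of the cerebellum deviated together (r of 0.10 to 0.37 over 3 pairs). Differently numbered libraries were not compared, so this measure cannot tell whether the numbers pair those samples. A replicate block changed no call of a cluster arm in the cerebellum. No other pair of groups met the rule of r over 0.1 in all of at least 3 pairs. The miRNAs named were the 6 members, 3 guides of the miR-200 family, miRNAs with a member's seed and the 5 with the pattern most like miR-182-5p. MiR-7a-5p and miR-7b-5p were named after their values were seen. The members, the lists and the contrast of the cortex with the other regions were chosen with earlier results of these data known. Sequences are RefSeq's on GRCm38.p6, where all 6 members matched, and gene neighbours are from GENCODE M21, not from mm9.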

Additional observations from a re-analysis of the deposited data

Results flagged for a closer look

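Whether the genotype effect in cortex differed from its mean in the other 3 regions was tested for each of the 6 cluster arms. In this contrast, chosen with earlier results of these data known, 3 arms passed, where 1.2% of all miRNAs tested did. The genotype effect in cortex minus its mean in the other 3 regions was -3.97 for miR-182-5p, -3.76 for miR-183-5p and -4.14 for miR-96-5p on the log2 scale (edgeR quasi-likelihood test, Benjamini-Hochberg adjusted p = 5.33e-06, 5.33e-06 and 0.0006). In the cortex all 3 knockout libraries lay below all 3 wild type libraries for each of these guides, and how many other miRNAs did so was not counted. Over the omission of each of the 23 libraries in turn the values ran from -4.33 to -3.62 for miR-182-5p, from -4.20 to -3.36 for miR-183-5p and from -5.85 to -3.53 for miR-96-5p. The summed level of the miR-200 family, 37.2 to 108 CPM in knockout and 676 to 1252 CPM in wild type cortex, moved with this result, and its part in it was not tested.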

How the results depend on the processing

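The 4 cluster arms called lower in knockout cortex numbered 4 under every alternative run and without any 1 cortex library, and the counts of 0 in cerebellum and olfactory bulb stayed 0. In the hippocampus the count of arms was 1 with no filter on low counts (0 otherwise; miR-183-5p at -0.80). For the average of 4 regions it was 4 with DESeq2 and 4 with no filter, against 2. For knockout cortex against knockout cerebellum it was 1, against 3, with a filter of 10 CPM, with library size only and with only the 2 groups fitted, and 1 to 3 over single-library omissions. For knockout cortex against knockout hippocampus it was 0, against 1, with limma-voom and with only the 2 groups fitted, and 0 to 1 over omissions, and for knockout cerebellum against knockout hippocampus 2 to 4 over omissions. The cause of these shifts was not tested. With the stricter filter 4 of the 6 arms were tested, and the 3 guides were called in the olfactory bulb contrasts. The fourth, miR-183-3p, passed that filter only through its reads in the olfactory bulb, so its call there had to follow.

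Log2 differences near 0 changed sign. In the olfactory bulb, knockout against wild type, miR-182-5p was -0.00068 with no filter (-0.25 to 0.23 over omissions), and miR-96-5p was -0.0075 with no filter, -0.0027 with a replicate block and -1.97e-05 with only the 2 groups fitted (-0.19 to 0.27 over omissions). Over omissions there, miR-183-5p ran from -0.24 to 0.12, miR-183-3p from -0.22 to 0.14, miR-182-3p from -0.091 to 0.22 and miR-96-3p from -0.20 to 0.32. In the cerebellum miR-182-5p ran from -0.29 to 0.18, miR-183-3p from -0.50 to 0.27 and miR-96-5p from -0.48 to 0.045, and in the hippocampus miR-96-5p from -0.33 to 0.67. MiR-96-5p in knockout cortex against knockout hippocampus was -0.052 with limma-voom and -1.07 to 1.28 over omissions.

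For miR-96-5p over miR-182-5p, requiring 10 counts of both turned olfactory bulb against cortex to -0.21 and against hippocampus to -0.13. Over omissions this ratio ran from -0.054 to 0.57 for olfactory bulb against cortex, -0.25 to 0.14 for cerebellum against hippocampus, -0.22 to 0.41 for cortex against cerebellum, -0.25 to 0.37 for cortex against hippocampus and -0.12 to 0.19 for knockout against wild type. For miR-183-5p over miR-182-5p the replicate block left 0.93 (olfactory bulb against cerebellum), 0.57 (olfactory bulb against hippocampus) and 0.80 (cortex against cerebellum) with an adjusted exact permutation p of 0.15, as the pairing allows only 64, 32 and 64 arrangements, and olfactory bulb against hippocampus ran from 0.50 to 0.61 over omissions. The block changed no other call of a ratio or of an arm between genotypes.

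Counts over all miRNAs depended on scaling between regions. The 3 guides kept their direction between olfactory bulb and each other region under the scalings run. With library size only, the median difference of all miRNAs moved to between -0.92 and 0.66. Higher and lower calls were then 26 and 289 (main 90 and 102) for wild type olfactory bulb against cortex, 32 and 292 (main 87 and 86) against hippocampus and 101 and 140 (main 122 and 112) against cerebellum. They were 259 and 51 (main 144 and 133) for wild type cortex against cerebellum and 40 and 243 (main 117 and 108) for wild type cerebellum against hippocampus. In knockout libraries they were 26 and 270 (main 98 and 85), 30 and 265 (main 79 and 79) and 88 and 139 (main 117 and 97) for olfactory bulb against cortex, hippocampus and cerebellum, 227 and 56 (main 135 and 133) for cortex against cerebellum and 56 and 207 (main 113 and 107) for cerebellum against hippocampus. With upper quartile scaling they were 99 and 200, 31 and 53, 91 and 159 and 68 and 110 for wild type cortex against cerebellum, cortex against hippocampus (main 45 and 24), olfactory bulb against cerebellum and olfactory bulb against hippocampus. In knockout libraries that scaling gave 100 and 177 for cortex against cerebellum, 21 and 26 for cortex against hippocampus (main 27 and 12), and 83 and 152, 79 and 103 and 62 and 122 for olfactory bulb against cerebellum, cortex and hippocampus. Between genotypes, no filter gave 11, 20, 4 and 20 lower calls in cerebellum, hippocampus, olfactory bulb and the average of regions, against 0, 0, 1 and 9.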
